A study of Mus musculus with 2 samples.

Results

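Open chromatin at 10 core genes of the circadian clock was examined in newborn mouse heart. The genes were fixed by name: Per1, Per2, Per3, Cry1, Cry2, Arntl, Clock, Nr1d1, Nr1d2 and Dbp. All 10 were found in GENCODE vM21, among 21938 protein-coding genes on chromosomes 1 to 19, X and Y. The study mapped DNase I hypersensitive sites in heart tissue of mice of strain B6NCrl at postnatal day 0, with no treatment or second tissue in the labels. It holds 1 group of 2 libraries, numbered as biological replicates 1 and 2, which carry the same donor label, so the spread between them may be technical. The sources used here give no time of day of collection and no read totals, so the sequencing depth is unknown. For each library the authors deposited peaks of 150 bp with a signal value each, and hotspots, broader stretches in which DNase I cut more often. With 1 group there is no contrast to test, so every result below is a description, set beside the same measure over all protein-coding genes or all peaks.

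The clock is a transcriptional feedback loop that runs in most cells of the body, heart muscle cells included. The proteins CLOCK and BMAL1, the product of Arntl, bind DNA as a pair at E-boxes and drive the Per and Cry genes, whose proteins then shut the pair off. Nr1d1 and Nr1d2 encode REV-ERB alpha and beta, repressors that bind ROR response elements (ROREs) and act on Arntl, and Dbp encodes a leucine zipper activator that binds D-boxes. Glucocorticoids, cyclic AMP and serum can reset the loop, for which glucocorticoid response elements, cyclic AMP response elements (CREs) and serum response elements in Per genes are known.

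Sites at which these elements lay inside open chromatin of both libraries carry much of the result and are shown here, chosen after the peaks were seen. Each sequence is the 150 bp peak of replicate 1 on mm10, written 5′ to 3′ on the strand of the gene, with the matched element in capitals. A match is a stretch of letters and does not show that a protein binds there. E-boxes (CACGTG), and in Dbp also an E′-box (CACGTT or its reverse complement), lay in the Per1 promoter (chr11:69095056-69095205, plus strand), inside Cry2 (chr2:92423776-92423925, minus), inside Nr1d2 (chr14:18238456-18238605, minus) and inside Dbp (chr7:45707716-45707865, plus).
Per1 promoter: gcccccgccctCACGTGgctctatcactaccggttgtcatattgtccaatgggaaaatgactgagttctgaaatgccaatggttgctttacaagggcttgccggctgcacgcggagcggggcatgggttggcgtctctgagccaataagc
Cry2 intron: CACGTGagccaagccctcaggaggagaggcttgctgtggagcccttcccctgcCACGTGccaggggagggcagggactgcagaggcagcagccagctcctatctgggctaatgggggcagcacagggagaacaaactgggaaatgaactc
Nr1d2 intragenic: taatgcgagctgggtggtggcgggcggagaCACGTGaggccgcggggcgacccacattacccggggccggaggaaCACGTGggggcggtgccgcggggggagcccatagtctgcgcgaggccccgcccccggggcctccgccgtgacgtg
Dbp intragenic: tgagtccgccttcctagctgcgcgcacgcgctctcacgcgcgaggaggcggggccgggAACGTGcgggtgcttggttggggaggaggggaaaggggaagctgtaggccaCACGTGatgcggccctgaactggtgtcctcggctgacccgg

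D-boxes (TTANGTAA) lay in the promoters of Per2 (chr1:91459376-91459525, minus) and Per3 (chr4:151044736-151044885, minus), where the same 8 letters occur at 2 places, and inside Nr1d1 (chr11:98773956-98774105, minus).
Per2 promoter: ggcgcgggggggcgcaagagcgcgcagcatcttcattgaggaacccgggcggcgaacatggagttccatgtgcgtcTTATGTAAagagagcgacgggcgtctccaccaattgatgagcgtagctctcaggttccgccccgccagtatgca
Per3 promoter: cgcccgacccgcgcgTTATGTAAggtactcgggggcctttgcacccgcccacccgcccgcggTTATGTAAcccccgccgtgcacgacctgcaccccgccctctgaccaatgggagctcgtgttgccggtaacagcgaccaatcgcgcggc
Nr1d1 intron: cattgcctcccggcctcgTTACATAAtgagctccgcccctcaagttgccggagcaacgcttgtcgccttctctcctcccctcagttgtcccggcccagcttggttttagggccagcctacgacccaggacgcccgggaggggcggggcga

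ROREs, the sites of REV-ERB and ROR proteins, lay inside Cry1 (chr10:85161836-85161985, minus), where the peak holds 2 of them in opposite orientation, and in the Dbp promoter (chr7:45704856-45705005, plus).
Cry1 intron: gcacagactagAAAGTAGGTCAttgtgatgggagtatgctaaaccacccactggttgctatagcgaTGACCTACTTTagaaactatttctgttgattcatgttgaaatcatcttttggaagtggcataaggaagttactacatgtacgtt
Dbp promoter: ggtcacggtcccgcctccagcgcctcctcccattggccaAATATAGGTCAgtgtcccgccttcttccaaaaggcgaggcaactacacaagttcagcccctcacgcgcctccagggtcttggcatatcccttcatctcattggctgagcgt

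Matches to the glucocorticoid element, a palindrome with a free spacer, lay inside Per1 (chr11:69097036-69097185, plus) and inside Per2 (chr1:91436376-91436525, minus), where 2 matches overlap each other.
Per1 intron: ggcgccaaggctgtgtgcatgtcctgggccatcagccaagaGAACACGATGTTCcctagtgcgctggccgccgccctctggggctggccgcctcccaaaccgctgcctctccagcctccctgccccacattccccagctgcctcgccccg
Per2 intron: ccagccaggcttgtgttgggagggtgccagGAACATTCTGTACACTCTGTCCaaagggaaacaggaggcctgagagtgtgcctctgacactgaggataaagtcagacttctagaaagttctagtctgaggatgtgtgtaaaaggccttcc

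The samples carried the marks of heart tissue. Both libraries had a peak at the promoter of 8 of 8 cardiomyocyte genes checked, of 4 of 4 endothelial and of 4 of 4 fibroblast genes. Over all protein-coding genes this held for 63.7%, so 4 of 4 does not show endothelial cells or fibroblasts to be present. The highest promoter values had medians of 109.5 and 101 in replicates 1 and 2 at the cardiomyocyte genes. These medians were 62 and 64.5 at endothelial and 51.5 and 50.5 at fibroblast genes, against 88 and 84 over protein-coding genes with a promoter peak. Of the 8 cardiomyocyte genes, Nppa (63 and 53) and Myh7 (81 and 79) lay below 88 and 84, and the others above. None of 4 erythroid genes had a promoter peak, and of 4 leukocyte genes only Cd68 did, with values of 39 and 29. Of 4 genes foreign to heart, Neurod1 alone had a peak, of value 16 in replicate 2. From whole tissue, a site open in few cells and a site weakly open in many cannot be told apart.

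A promoter peak, centred within 500 bp of an annotated transcription start site (TSS) of the gene, was found in both libraries at all 10 clock genes. Over all protein-coding genes this held for 63.7%, and for 71.2% to 96.6% of genes in the same CpG decile as each clock gene. The highest promoter peak of a clock gene had a median value of 114.5 in replicate 1 and 108.5 in replicate 2. Over protein-coding genes with a promoter peak the medians were 88 and 84. Clock genes had 2 or more promoter peaks in both libraries at 8 of 10, against 7377 of all 21938 protein-coding genes (33.6%). Of the latter, only 13981 had any promoter peak in both libraries. Genes with more TSSs also have more windows in which such peaks are counted. Values above the upper quartile of those genes in both libraries were found at 7 of 10 clock genes (21.1% of protein-coding genes with a promoter peak in both libraries), and at Per3 and Cry1 they lay between the median and that quartile. Values above the median in both libraries were thus found at 9 of 10 (46.3%), all but Clock, which lay below it in both. Promoters rich in CpG have higher medians, so each gene was also set against its own CpG decile, a comparison added after the values were seen. Values above that median in both libraries were found at 8 of 10 clock genes (44.3% of protein-coding genes with a promoter peak in both). Cry1, at 92 and 99 against 97 and 94, lay below it in replicate 1 and above it in replicate 2, and Per3, at 98 and 95 against 97 and 92, lay barely above it.

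**Figure D1:**
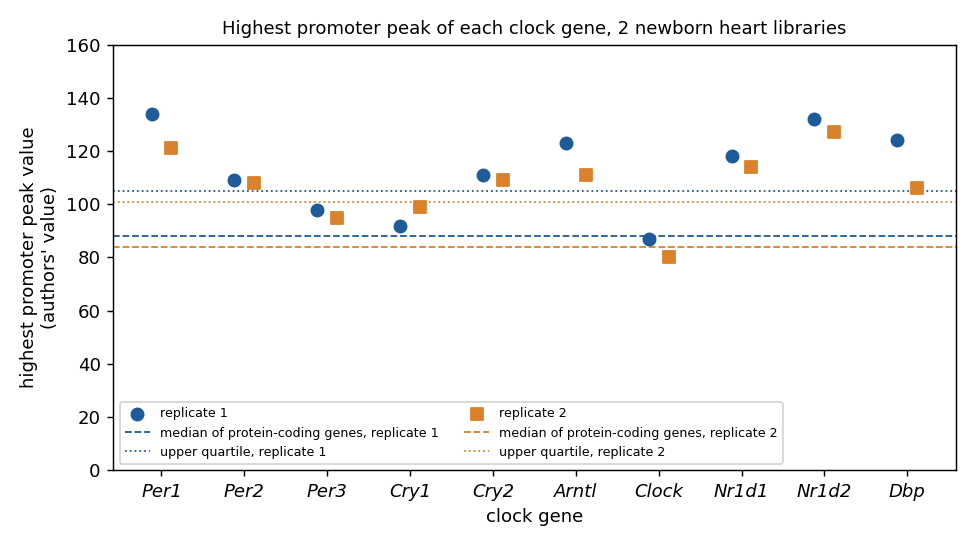
Highest promoter peak value (y axis, the authors' value) of each of the 10 clock genes (x axis) in replicate 1 (circles) and replicate 2 (squares). Dashed and dotted lines mark the median (88 and 84) and the upper quartile (105 and 101) over protein-coding genes with a promoter peak. Nr1d2 and Per1 stand highest and Clock lowest.

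Clock and Arntl, the activating arm, differed in promoter value: Clock was the lowest of the 10 genes in each library, and Arntl the fourth highest. At Arntl (ENSMUSG00000055116.8, chromosome 7 from 113207465 to 113314126, plus strand) the highest promoter peak had 123 in replicate 1 and 111 in replicate 2 (117 ± 8.49, SD, n = 2). The peaks were centred 155 and 55 bp upstream of the gene start and overlapped each other. At Clock (ENSMUSG00000029238.11, chromosome 5 from 76209868 to 76304792, minus strand) the highest promoter peak had 87 and 80 (83.5 ± 4.95, SD, n = 2), against medians of 97 and 94 for genes of its CpG decile. Both Clock values lie below both Arntl values. The hotspot at the Clock promoter was wide, 1886 bp in replicate 1 and 1839 bp in replicate 2. A weaker promoter peak of 64 and 58 lay 258 and 238 bp upstream. A peak of 76 and 67 lay 802 and 782 bp inside the gene, outside the promoter window, and holds a RORE and an E′-box. The start of the antisense gene Gm7467 lies 84 bp from a Clock TSS, so these peaks cannot be assigned to either gene.

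The Per genes encode the repressor that accumulates and decays over the cycle, and they differed among themselves. Per1 (ENSMUSG00000020893.17, chromosome 11 from 69095217 to 69109960, plus strand) had 134 and 121 at a peak that lay at the same position in both libraries, centred 87 bp upstream of the gene start. That value exceeds those of 99.8% and 97.1% of protein-coding genes with a promoter peak. Its TSSs inside the gene carried further peaks of 102 and 90 at 3613 bp and of 109 and 100 at 4833 bp. Per2 (ENSMUSG00000055866.9, chromosome 1 from 91415982 to 91459324, minus strand) had 109 and 108, again at an identical position, 126 bp upstream, and no other promoter peak. Per3 (ENSMUSG00000028957.12, chromosome 4 from 151003652 to 151044665, minus strand) had 98 and 95, 145 bp upstream in both libraries, and lies within the annotated body of Camta1. A weaker Per3 peak of 51 in replicate 1 and one of 29 in replicate 2 lay just inside the gene and did not overlap. In each library the order was Per1, Per2, Per3, although Per1 and Per2 are separated by 25 in replicate 1 and by only 13 in replicate 2.

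The Cry genes encode cryptochromes, the partners of the Per proteins in repression. Cry2 (ENSMUSG00000068742.11, chromosome 2 from 92403646 to 92434043, minus strand) had 111 and 109, with a weaker peak of 48 and 44 just inside the gene. Cry1 (ENSMUSG00000020038.10, chromosome 10 from 85131700 to 85185064, minus strand) had a promoter made of 2 peaks of like height. The one at 26 bp upstream had 90 in replicate 1 and 99 in replicate 2, and the one at 346 bp upstream had 92 in both, so the higher one differs between the libraries. Cry1 was also the only clock gene whose highest promoter value was larger in replicate 2.

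The REV-ERB genes had some of the highest promoter values. Nr1d2 (ENSMUSG00000021775.11, chromosome 14 from 18204054 to 18239127, minus strand) had 132 and 127 at 163 bp upstream, above 99.5% and 99.4% of protein-coding genes with a promoter peak. The Nr1d2 peak shown above, 597 bp inside the gene, had 112 and 110. Nr1d1 (ENSMUSG00000020889.11, chromosome 11 from 98767932 to 98775333, minus strand) had 118 and 114 at 177 bp upstream, in a CpG decile with medians of 74 and 69. The 3′ part of Nr1d1 overlaps Thra, a thyroid hormone receptor gene on the opposite strand. Dbp, the output gene (ENSMUSG00000059824.12, chromosome 7 from 45705088 to 45710203, plus strand), had 124 and 106 (115 ± 12.7, SD, n = 2), the widest spread of the 10. Its body overlaps Sphk2, a lipid kinase gene.

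By mean value the order was Nr1d2, Per1, Arntl, Nr1d1, Dbp, Cry2, Per2, Per3, Cry1 and Clock. Neighbours in this order overlapped or touched in the range of their 2 values, except Per2 above Per3 and Cry1 above Clock. At 8 of 10 genes the highest promoter peak was centred 50 to 200 bp upstream of the gene start in both libraries, a band chosen after the values were seen, against 23.3% of protein-coding genes with a promoter peak in both. Cry1 and Clock were the exceptions. The median position was 150 bp upstream in replicate 1 and 132 bp in replicate 2 for the clock genes, written as -150 and -132, and -14 and -15 for protein-coding genes.

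Hotspots gave the same picture at promoters in number, but their width did not always follow the peak values. Each clock gene had a promoter hotspot in both libraries, against 64.5% of protein-coding genes. In each case the −log10 q-value was at its ceiling of 100 in both libraries, against 11502 of all 21938 protein-coding genes (52.4%). Of the latter, 14143 had a promoter hotspot in both libraries. The widest promoter hotspot of a clock gene had a median width of 1001.5 bp in replicate 1 and 1372 bp in replicate 2, against 669 and 693 bp. Width differed between the libraries at some genes. At Dbp the widest one had 630 bp in the former library and 2775 bp in the latter, although the promoter peaks of 124 and 106 overlapped. The stretch of 2775 bp covers separate hotspots of 562, 630 and 325 bp in replicate 1. Arntl (1661 and 1583 bp), Nr1d2 (1690 and 1666 bp) and Clock (1886 and 1839 bp) were wide in both, although Clock had the lowest peak value. At Cry2 the widest one had 518 bp in replicate 1, below the 669 bp of protein-coding genes, and 972 bp in replicate 2. The stretch of 972 bp also overlaps a further hotspot of 243 bp in replicate 1.

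**Figure D2:**
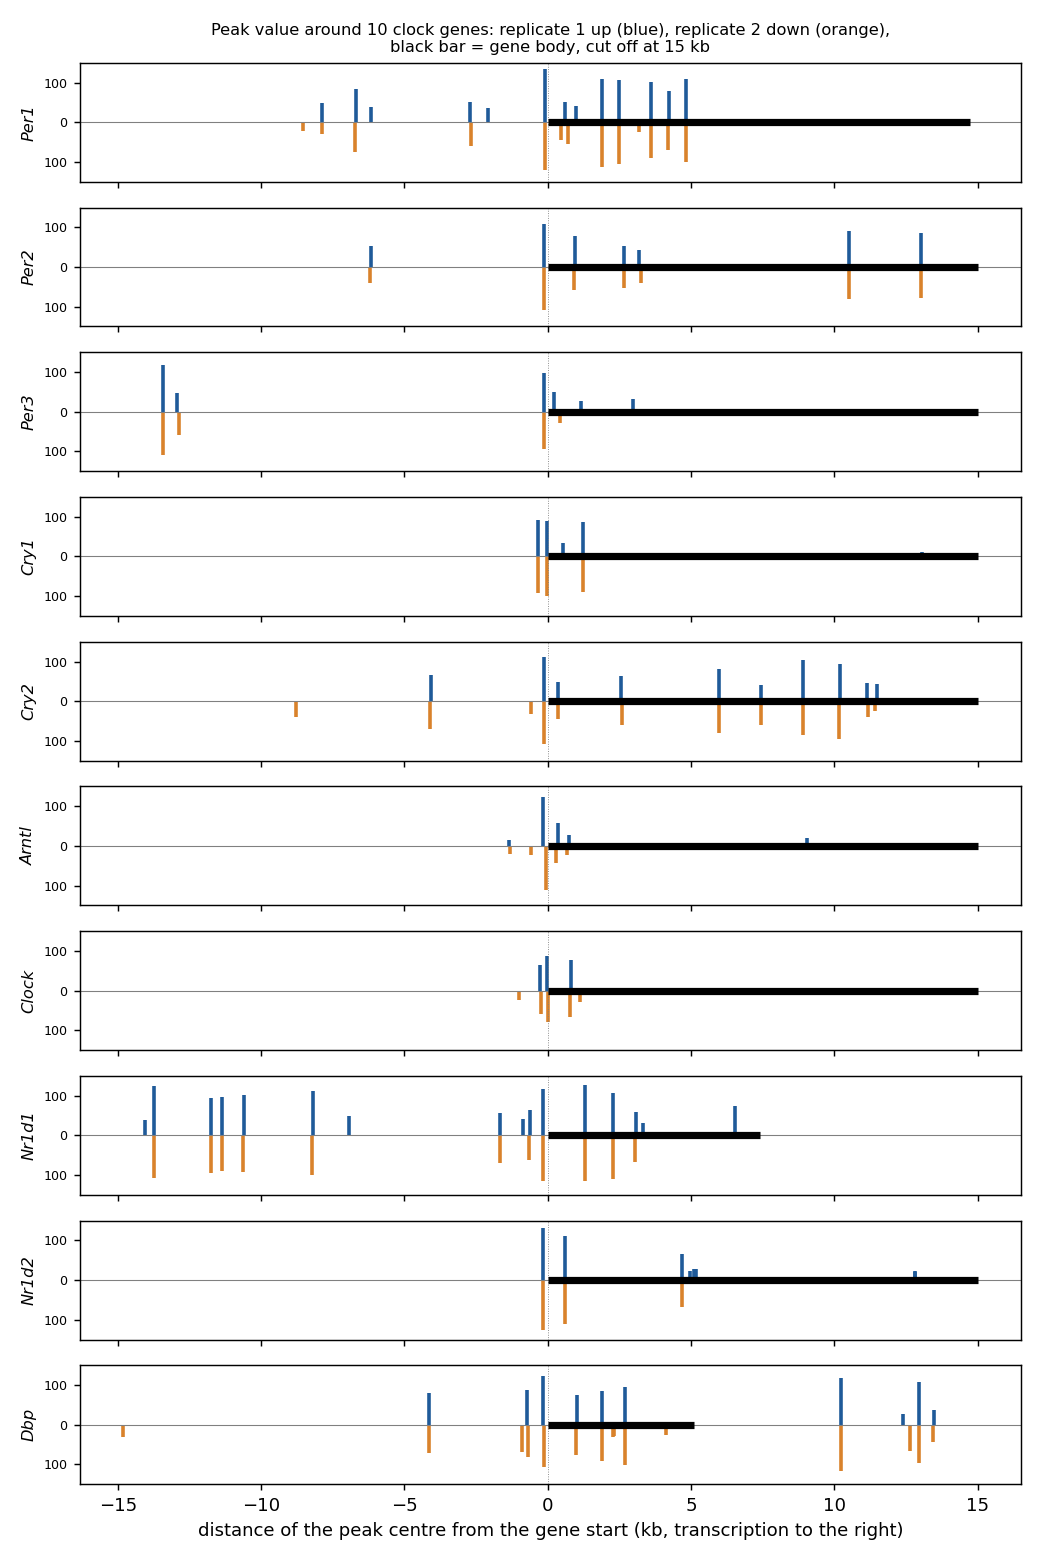
Peak value (y axis) against distance of the peak centre from the gene start (x axis, kb, transcription to the right) for each clock gene, replicate 1 upward and replicate 2 downward. Black bars are gene bodies, cut off at 15 kb. Per1, Nr1d1, Cry2 and Dbp show several high peaks inside the gene, and Nr1d1 a group of 5 high peaks upstream, from -8197 to -13717 bp in replicate 1.

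High peaks also lay inside the genes, away from any TSS; those named were chosen after their values were seen. In Nr1d1 a peak 1303 bp inside the gene, which holds a D-box, had 126 and 114, as high as the promoter peak of 118 and 114. A peak 2283 bp inside, with an E-box, had 107 and 109. Of 121674 distal peaks of replicate 1, those over 1 kb from every TSS, only 12 had a value of 126 or more, and of 103647 in replicate 2, 49 had 114 or more. Per1 had peaks of 110 and 114 at 1893 bp, with the glucocorticoid element shown above, and of 107 and 104 at 2493 bp, with an E-box. These 4 sites were found at the same position in both libraries.

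Cry2 and Per2 had chains of peaks over several kilobases of the gene. In Cry2 peaks of 82 and 81, 105 and 86, and 95 and 95 lay 5973, 8913 and 10193 bp from the gene start in replicate 1, the last of them with 2 E-boxes. In Per2 they lay at 10494 bp (90 and 80), 13034 bp (87 and 79), 22874 bp (100 and 87) and 30514 bp (64 and 69). The Per2 peak at 22874 bp is the one with overlapping glucocorticoid elements. Each of these 7 sites was called in both libraries.

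Arntl, the longest of the genes, had a group of moderate peaks far inside, at 42205 bp (65 and 61), 43465 bp (76 and 65, with a RORE) and 43805 bp (80 and 80). Cry1 had a peak of 87 and 89 at 1234 bp and the peak with 2 ROREs, of 58 and 64, at 23154 bp. In Nr1d2 the peak at 4697 bp had 65 and 69. In Clock the highest peak inside the gene and over 1 kb from every TSS had only 26 in replicate 1 and 18 in replicate 2.

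Upstream of Nr1d1 lay a group of strong distal peaks outside any protein-coding gene. In replicate 1 they were at -8197 bp (111), -10597 bp (102), -11357 bp (96), -11737 bp (94) and -13717 bp (124), and the overlapping peaks of replicate 2 had 99, 93, 89, 96 and 108. Even the lowest of the 5 exceeded 98.6% of the distal peaks of replicate 1. The peaks at -8197 and -13717 bp hold an E-box, and the one at -10597 bp a CRE (TGACGTCA). A peak within 50 kb cannot be assigned to a gene by position alone, and Msl1 is the next protein-coding gene on the far side.

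Counted over the gene and 50 kb on either side, distal peaks had a median of 13 per clock gene in replicate 1 and 9.5 in replicate 2, against 7 and 6 for protein-coding genes. The clock genes had on average 14.2 ± 2.12 (SD, n = 2). At 9 of 10 the number exceeded the median of protein-coding genes in both libraries, which 43.1% of protein-coding genes do, and Cry1 was the exception with 7 and 6. Much of this rested on weak peaks at some genes. With only peaks at or above the median value of their library, an alternative added after seeing the data, 6 of 10 exceeded the median of 3 and 3 in both libraries (39.8% of protein-coding genes), namely Per1, Per2, Cry2, Arntl, Nr1d1 and Dbp. Clock then had 0 in replicate 1 and 2 in replicate 2, against 10 and 8 with all peaks. Per3 had 3 and 4, Nr1d2 3 and 3, and Cry1 4 and 3. The gene regions differ in length and in the room left by TSSs. Per 100 kb of sequence over 1 kb from every TSS, Per1 had 36.6 and 37.9, a density that only 17 protein-coding genes in replicate 1 and 9 in replicate 2 reached, Per1 included. Of these Per1 peaks only those at 1893 and 2493 bp lay inside the gene, and the others lay in the 50 kb on either side. Genes whose regions overlap share such peaks. Overlapping peaks of the same library were counted separately, here as over all genes, and the Per1 region holds some in each library. Nr1d1 had 39.7 and 24.8 (12 and 79 genes reached this), and Dbp 17.8 and 16.4. Cry1 had 4.94 and 4.24 and Clock 5.68 and 4.54, below the medians of 6.59 and 5.73.

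The number differed most between libraries at Nr1d1, with 32 in replicate 1 and 20 in replicate 2 (26.0 ± 8.49, SD, n = 2). All 20 of replicate 2 overlapped a peak of replicate 1. The 12 found only in replicate 1 had a median value of 29.5 and a highest value of 73. The numbers cover the gene and 50 kb on either side, so the difference need not lie in Nr1d1 itself. From 98742187 to 98746564 on chromosome 11, outside the gene, replicate 1 had a run of hotspots and replicate 2 had none. At Per1 the numbers were 29 and 30, of which 25 and 23 were found in the other library. Some of these overlapped each other and were matched to the same peak of the other library.

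**Figure D3:**
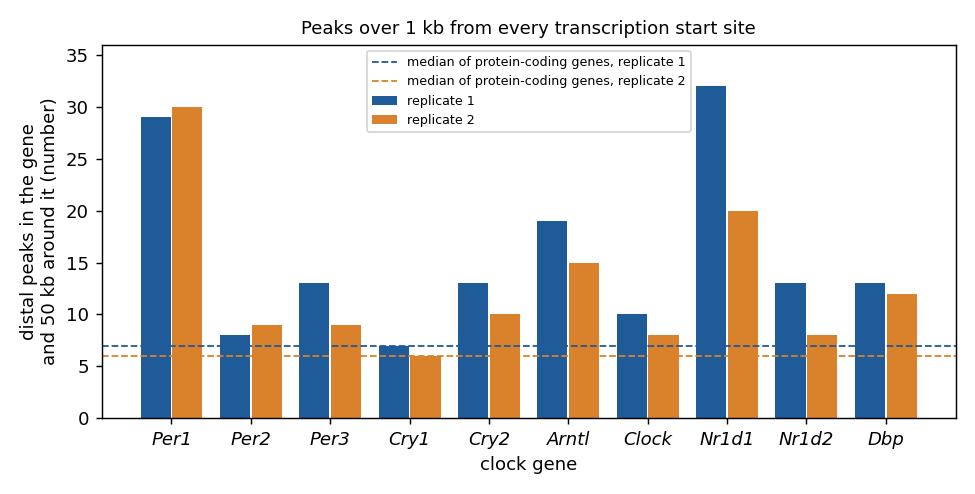
Number of distal peaks (y axis) in each clock gene and 50 kb around it (x axis) in replicate 1 and replicate 2, with dashed lines at the medians of protein-coding genes (7 and 6). Per1 and Nr1d1 have 20 or more in both libraries and Cry1 the fewest, 7 and 6.

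Most peaks around the clock genes were found in both libraries. The regions held 270 of 164657 peaks in replicate 1 and 246 of 144708 in replicate 2, and 75.6% and 81.7% of them overlapped a peak of the other library by at least 1 bp. Over all peaks the shares were 70.1% and 79.8%. Of the promoter peaks of the clock genes, 19 of 20 in replicate 1 and 21 of 24 in replicate 2 were found again. Peaks without a partner were mostly low, with medians of 28.5 and 28 against 57 and 56 for the others, but reached 73 and 69. At 9 of 10 genes the highest promoter value was larger in replicate 1. Replicate 2 was lower than replicate 1 by a median log2 ratio of -0.06 over the 19 overlapping promoter peaks and -0.14 over all 115466 overlapping peaks.

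**Figure D4:**
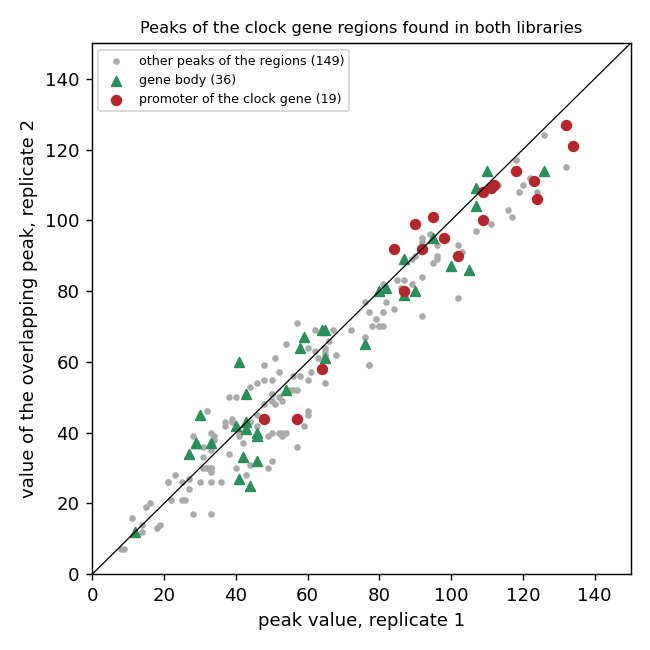
Value of each peak of the clock gene regions in replicate 1 (x axis) and of the overlapping peak in replicate 2 (y axis), with the line of equal values. Promoter peaks of the clock genes (19) are circles, peaks inside the genes (36) triangles, and other peaks of the regions (149) dots. Promoter peaks of the clock genes lie mostly in the upper right, near the line.

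Clock elements were counted in promoter peaks on both strands. An E-box was found in 5 of 20 promoter peaks of the clock genes in replicate 1 (25.0%) and 5 of 24 in replicate 2 (20.8%), against 5.53% and 5.67% of promoter peaks of protein-coding genes. In distal peaks the E-box was found in 9 of 157 in replicate 1 and 9 of 127 in replicate 2 (5.73% and 7.09%), against 3.11% and 3.22% of all distal peaks. Those with an E-box came from the regions of only 3 of 10 clock genes in each library. The RORE was found in 4 and 4 (2.55% and 3.15%, against 0.322% and 0.333%) and the glucocorticoid element in 3 and 2 (1.91% and 1.57%, against 0.713% and 0.618%). The CRE was found in 1 and 1 (0.637% and 0.787%, against 0.381% and 0.411%). Other elements were at or under the share over all distal peaks in at least 1 library. The E′-box was found in 5 and 2 (3.18% and 1.57%, against 2.36% and 2.40%), the D-box in 1 and 1 (0.637% and 0.787%, against 1.14% and 1.23%) and the serum response element in 1 and 1 (against 0.900% and 0.928%). A promoter peak with an E-box in both libraries was found at 4 of 10 clock genes, Per1, Cry1, Nr1d2 and Dbp, against 9.41% of protein-coding genes with a promoter peak in both. An E′-box was found at Cry1, Cry2 and Dbp (3.94%), a D-box at Per2 and Per3 (0.830%) and a RORE at Dbp (0.136%). Neither a CRE (3.32%), a glucocorticoid element (0.236%) nor a serum response element (0.966%) was found in a promoter peak of a clock gene in both libraries. No element was found in the promoter peaks of Arntl, Clock or Nr1d1, which says only that these letters are not in those 150 bp. Among these genes, outside the peaks but inside the promoter hotspots of both libraries, a RORE lay 77 bp inside Arntl. At Nr1d1 the promoter hotspots likewise held E′-boxes at -69 and -351 bp and an E-box at -364 bp. Such matches also lay at other clock genes, among them an E′-box 8 bp inside Per2 and an E-box at -332 bp of Per1. Genes with more TSSs have more promoter peaks to search, and the Dbp peak with an E-box lies at the TSS of a retained-intron transcript, 2702 bp inside the gene.

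Over the whole gene and 2 kb upstream, 10 of 70 E-boxes of the clock genes lay in a peak of both libraries (14.3%), against 2.32% of E-boxes in protein-coding genes. They lay in Per1 (3), Cry2 (2), Nr1d2 (2), Cry1, Nr1d1 and Dbp. For ROREs the numbers were 6 of 15 (40.0% against 0.782%), namely 2 each in Cry1 and Arntl and 1 each in Clock and Dbp. For glucocorticoid elements they were 4 of 14 (28.6% against 1.86%), 2 in Per1 and 2 in Per2. For D-boxes they were 4 of 73 (5.48% against 0.402%), for E′-boxes 4 of 61 (6.56% against 1.22%) and for serum response elements 1 of 19 (5.26% against 0.872%), in Per2. None of 5 CREs lay in a peak of both libraries, against 8.76%. The same stretches are richer in peaks to begin with, since peaks of both libraries cover 1.96% of their bases and 0.850% of those of protein-coding genes. How much of each difference comes from that was not tested.

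Other genes of the clock had open promoters too, but with values nearer the median. Both libraries had a promoter peak at all 17 genes of a list of further activators, repressors, kinases and ligases of the clock, beside the 63.7% given above. Their highest promoter values had medians of 86 and 82, and 4 of 17 lay above the upper quartile in both libraries, a share near the 21.1% over protein-coding genes. Tef, a relative of Dbp, had 123 and 122 at a TSS inside the gene, Btrc, a ubiquitin ligase subunit, 123 and 112, and Bhlhe40, an E-box repressor, 120 and 109. At the low end, named after the values were seen, Npas2, a relative of Clock, had 58 and 48. Most distal peaks were counted at Rora, a very long gene that encodes an activator at ROREs, with 66 and 56. Btrc had 31 and 25, Npas2 24 and 21, and the kinase gene Csnk1e 23 and 22. Distal peaks exceeded the median of protein-coding genes in both libraries at 13 of 17, against 43.1%. An E-box lay in a promoter peak of both libraries at 4 of 17 (9.41% over protein-coding genes), Bhlhe41, Tef, Hlf and Ciart. A CRE did at 2 of 17 (3.32%), Hlf and Csnk1d, and an E′-box at 1 of 17, Tef, near its share of 3.94%. The D-box, the RORE, the glucocorticoid element and the serum response element were found at 0 of 17.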

How the data were processed

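DNase-seq peaks and hotspots of 2 libraries were used as deposited. Per the text files deposited with them, both were called for each replicate separately from its mm10 alignments, with an aligner, caller and thresholds not given in the sources used here. The peak signal value deposited by the authors has no stated normalization, is a whole number in each peak and is 148 at most on the analysed chromosomes. It was therefore used mainly to describe and rank peaks within a library. Means, SDs and log2 ratios of these values over the 2 libraries were taken without scaling. They thus include any difference in scale between the libraries. In the deposited hotspots each region carries a −log10 q-value, at most 100. Weak sites enter or leave a list at the caller's threshold, so an absent peak does not show a closed site.

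Genes and 132629 TSS positions came from GENCODE vM21, and sequence from GRCm38.p6, the primary sequence of mm10. Peaks were placed by their centre. Promoter peaks lay within 500 bp of a TSS of the gene, and distal peaks over 1 kb from every TSS. CpG deciles (10 equal classes of genes) used observed over expected CpG within 500 bp of the gene start. Percentiles give the share with a lower value. The RORE (11 letters) and the serum response element were searched by their consensus. Scripts ran in Python 3.11.15 with NumPy 2.4.6 and were tested on simulated data. Members, lists and tests were chosen with earlier results of these data known. Named genes were all members, the 3 further clock genes with the highest promoter percentile, those with the most distal peaks, and neighbours that overlap a member or start within 500 bp of it; such neighbours not described in the report are D930015M05Rik, Gm45355, Gm43658 and Ube2n-ps1. Msl1, Nppa, Myh7, Cd68, Neurod1, Npas2 as a low value, Bhlhe41, Hlf, Ciart and Csnk1d fall outside this rule and were named after their values were seen.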

Additional observations from a re-analysis of the deposited data

How the results depend on the processing

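The numbers of clock genes with a promoter peak (10) or a promoter hotspot (10) in both libraries, and of the 17 further clock genes with a promoter peak, were the same with windows of 250 and 1000 bp, with the gene start only and with either library left out. With peaks at or above the median of their library only, both promoter peak counts were also the same. The median of the highest promoter values was 112.5 and lay between 108.5 and 114.5 without one of the libraries. The number of promoter peaks with an E-box was 5, and 6 with the E′-box added. Promoter values above the median in both libraries were found at 9 clock genes, and at 8 against the median of the gene's own CpG decile; distal peaks above the median at 9, and at 6 with the stronger peaks only. Distal peaks per clock gene went from 14.2 to 8.95 with 20 kb around the gene, 22.95 with 100 kb and 8.80 with the stronger peaks only, and ranged from 12.7 to 15.7 without one of the libraries; per 100 kb of sequence away from TSSs, in another unit, the mean was 14.1. These changes follow from the amount of sequence or the number of peaks counted. The mean share of peaks found in both libraries was 78.6%. It went to 74.0% with an overlap of at least 75 bp and to 85.1% with the stronger peaks only. Taken singly, the shares were 75.6% for peaks of replicate 1 and 81.7% for those of replicate 2. Each is matched against the other library, so no library can be left out of this measure. No paired analysis was possible because the study has 1 group. With unknown depth, the absence of a weak peak cannot be read as closed chromatin.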
